A study of Mus musculus with 6 samples.

Results

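Inhibitory receptors restrain T cells after activation, and Tox encodes a nuclear factor that sustains several of them in exhausted CD8+ T cells. Their mRNA levels were read in sorted CD8+ T cells of mouse liver. The set holds 10 genes, Pdcd1, Ctla4, Lag3, Havcr2, Tigit, Cd160, Cd244, Btla, Cd200 and Tox, and its probes were taken as all non-control probes whose gene name in the array files equals one of them. Of the 10 genes, 9 had a probe under that name, and no probe carried the name Tigit. They were read by 14 of the array's 41174 probes, of which 11 entered the test beside 22222 probes in all, so that each of the 9 genes had at least 1 tested probe. The set is wider than its name. Cd200 encodes a surface ligand whose receptor is inhibitory, and Cd244 and Cd160 encode receptors that can either inhibit or activate.

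The study compared livers of mice with and without CXCR3, a chemokine receptor, to learn its part in the activation and proliferation of these cells. TGC3 mice (dnTGFβRII CXCR3-/-) carried the dnTGFβRII transgene and lacked CXCR3, while TG mice (dnTGFβRII) carried the transgene alone. All were females of the C57BL/6 background aged 13 to 14 weeks, with 3 samples in each group and 1 one-colour array for each sample (TGC3 1 to TGC3 3, TG 1 to TG 3). dnTGFβRII is a dominant negative form of TGF-beta receptor II. It is known from other work to be driven in T cells by a Cd4 promoter fragment and to lead to autoimmune bile duct disease, and both groups carry it, so that neither gives a wild-type level. The labels name no cell type to which the CXCR3 deletion was limited, and do not say whether mice were pooled or whether each array stands for a mouse of its own. The p-values therefore cover only the spread between these samples, which may be technical.

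Most of these genes are switched on by T cell receptor signals. PD-1 (Pdcd1) and CTLA-4 (Ctla4) bind B7 family ligands on other cells and dampen receptor and CD28 signals, LAG-3 (Lag3) binds MHC class II, and TIM-3 (Havcr2) and BTLA (Btla) bind galectin-9 and HVEM among others. In lasting stimulation, as in chronic infection or tumours, CD8+ T cells keep several of these receptors together, and Tox is needed for that state. 2B4 (Cd244) is a receptor of the SLAM family whose cytoplasmic tyrosine motifs recruit the adaptor SAP or phosphatases. The liver is rich in cells that present ligands for these receptors.

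Sequences are shown for 2 reasons, to place the probe that carried the clearest fall and to set side by side the upstream windows of genes that moved in opposite directions. The probe A_52_P541344 for Cd244 spans 527 bases of the genome with its 60 bases (chr1:173507474-173508000, mm9, plus strand) and so lies across an exon junction. It has 1 open reading frame. The capitals mark bases 29 to 46, which in that frame read threonine, any residue, tyrosine, any residue, any residue, valine, the form of the SLAM family's tyrosine motif. The Cd160 probe, given for comparison, also lies across a junction (chr3:96609753-96612738, mm9, minus strand).
Cd244 A_52_P541344: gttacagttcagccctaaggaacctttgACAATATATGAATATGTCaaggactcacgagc
Cd160 A_51_P285047: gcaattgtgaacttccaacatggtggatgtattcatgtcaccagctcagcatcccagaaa

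The windows below are the 250 bases before the annotated start of each gene, from RefSeq on GRCm38.p6, a later build than that of the probe positions. Windows were found for 7 of the 9 genes (8 windows, since Cd160 has a pair). Pdcd1 and Cd200 are shown because their signals moved together over the arrays, and Cd244 because it went the other way. The capitals mark the core of NFAT sites, GGAAA, and the AP-1 site, TGANTCA, each searched on both strands. Neither motif's letters contain the other.
Pdcd1 (chr1:94052554-94052803, minus strand): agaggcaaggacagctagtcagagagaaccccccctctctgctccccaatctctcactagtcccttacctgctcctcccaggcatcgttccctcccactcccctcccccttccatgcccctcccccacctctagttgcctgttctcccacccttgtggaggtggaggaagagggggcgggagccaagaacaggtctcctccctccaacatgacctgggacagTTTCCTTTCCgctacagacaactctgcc
Cd200 (chr16:45409054-45409303, minus strand): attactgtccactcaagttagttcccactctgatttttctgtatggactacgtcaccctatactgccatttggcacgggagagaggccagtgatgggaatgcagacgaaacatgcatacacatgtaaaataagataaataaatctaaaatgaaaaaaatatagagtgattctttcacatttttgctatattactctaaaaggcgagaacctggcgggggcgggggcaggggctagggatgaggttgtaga
Cd244, now Cd244a (chr1:171558943-171559192, plus strand): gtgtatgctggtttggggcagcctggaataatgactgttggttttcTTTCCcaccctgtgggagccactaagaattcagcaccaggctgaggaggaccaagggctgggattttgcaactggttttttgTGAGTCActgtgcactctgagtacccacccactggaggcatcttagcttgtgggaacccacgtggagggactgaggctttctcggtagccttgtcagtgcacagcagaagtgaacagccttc
The Pdcd1 window held 2 NFAT cores and 0 AP-1 sites, the Cd200 window 0 of each, and the Cd244 window 1 of each. Over all 32851 windows of this length, 55.6% held the NFAT core and 6.75% the AP-1 site. These matches describe letters only.

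Signals are log2 processed intensities minus the array's 75th percentile, so that 0 stands for the 75th percentile of its probes, which was 594 to 623 intensity units on TGC3 arrays and 561 to 621 on TG arrays. Between 58.9% and 63.8% of probes were called well above background, depending on the array. Cxcr3 checked the labels. Its 1 probe read 23.8 to 33.0 intensity units on TGC3 arrays and 66107 to 73352 on TG arrays, but a background flag kept it out of the reported test. In a fit that ignored background flags, chosen after seeing the data, its change was -11.35 ± 0.12 (adjusted p = 8.53e-07). The TGC3 arrays shared 1 slide and scan run and the TG arrays another. Slide, scan and genotype therefore cannot be told apart in what follows. Cd8b1 read 8.06, 8.20 and 8.02 in TGC3 and 8.27, 8.12 and 8.13 in TG, and Cd4 read -4.15, -4.20 and -4.25 in TGC3, against -4.33, -4.39 and -4.28 in TG. Both were above background on all 6 arrays.

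Changes are TGC3 minus TG on the log2 scale ± standard error from limma, 3 arrays a group, and adjusted p covers all 22222 tested probes. Of those, 4917 (22.1%) passed the 0.05 threshold, 3107 (14.0%) higher and 1810 (8.15%) lower. Centring each array on its median instead, which moved the median change of all probes to -0.19, turned the split to 2046 higher and 6420 lower. Groups failed to overlap for 44.0% of all tested probes. With so many probes moving, a share near these is not a result about the receptors.

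Of the 11 receptor and Tox probes, 1 was higher in TGC3 (Cd200), 1 was lower (1 of the Cd244 probes) and 9 passed neither way, a share of 18.2% called against the 22.1% over all probes. The groups did not overlap for 6 of the 11 (54.5%, against 44.0%), 3 of them higher and 3 lower, against 22.2% and 21.8% of all probes. At an unadjusted p under 0.05, 7 of the 11 passed, against 37.3% of all probes. The median change was -0.08, against -0.01 over all probes, while the median absolute change was 0.47, against 0.19. Read by the brightest probe of each gene, 1 of the 9 genes was higher, 0 were lower in limma and 8 passed neither way (11.1%, against 24.6% of 15032 gene names). With p-values adjusted over those 15032 names instead, 2 were higher (Cd200, with Pdcd1 added at an adjusted p of 0.0477) and 1 was lower (Cd160, 0.0496). Over all those names, that fit called 2536 higher and 1386 lower. In the fit of all probes, at an unadjusted p under 0.05, 3 of the 9 were higher and 3 lower. The same reading gave 3427 and 2548 of the 15032 names. Pdcd1, Cd200 and Ctla4 sat above 0, Cd244, Cd160 and Btla below it, and Tox and Lag3 near it.

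**Figure D1:**
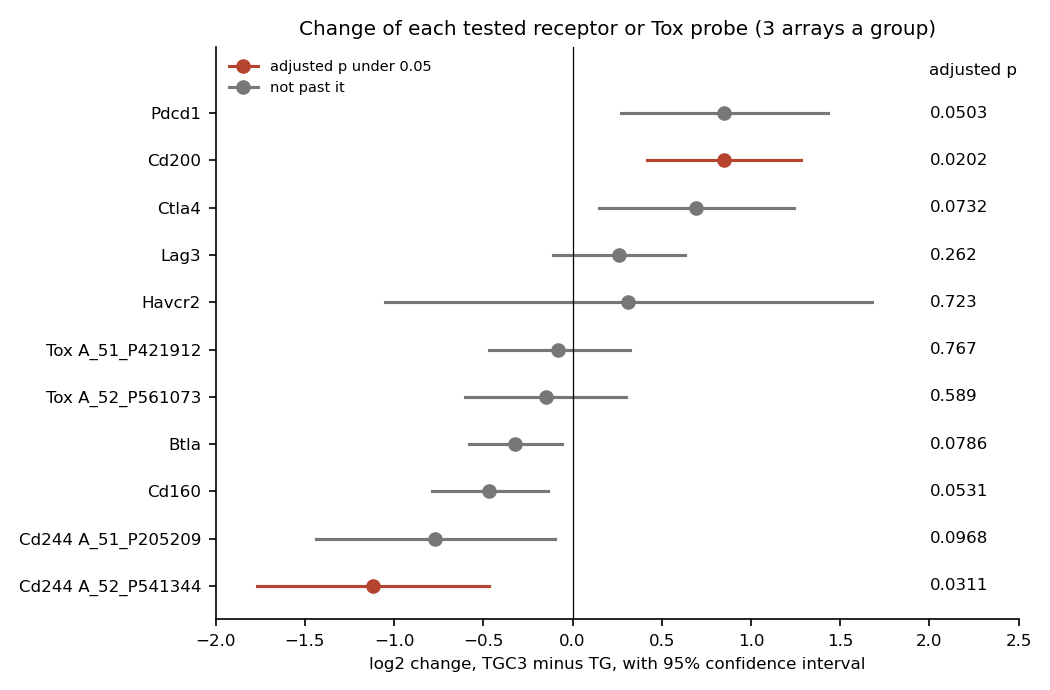
Fitted log2 change, TGC3 minus TG, of each of the 11 tested probes, with 95% confidence intervals and the adjusted p at the right. Red marks the calls of Cd200 (0.85) and of the Cd244 probe A_52_P541344 (-1.12); grey probes did not pass.

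Pdcd1 encodes PD-1, the receptor for PD-L1 and PD-L2. Its probe (A_51_P285736, NM_008798, chr1:95935064-95935123, mm9, minus strand) read 0.28, -0.06 and -0.61 in TGC3, against -1.24, -0.94 and -0.75 in TG. Every TGC3 array lay above every TG array, though TGC3 3 and TG 3 stood only a small step apart. The means were -0.13 ± 0.45 in TGC3 and -0.98 ± 0.24 in TG (SD, n = 3 each), a difference of 0.85 ± 0.24 (95% interval 0.27 to 1.43, 1.80-fold). It missed the threshold narrowly (adjusted p = 0.0503). Without TGC3 3 the adjusted p was 0.0230, and without any other 1 array it did not pass, with the highest at 0.139. In intensity units the same probe gave 721, 585 and 410 in TGC3, against 238, 298 and 368 in TG.

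Cd200 encodes the ligand of CD200R1, an inhibitory receptor found mainly on myeloid cells. Its probe (A_52_P254095, NM_010818, chr16:45382430-45382489, mm9, minus strand) read -2.25, -2.22 and -2.62 in TGC3, against -3.47, -3.28 and -2.90 in TG. The groups did not overlap, and TGC3 3 and TG 3 were again the nearest pair. Cd200 rose by 0.85 ± 0.18 (95% interval 0.42 to 1.28, 1.81-fold, adjusted p = 0.0202), with means of -2.36 ± 0.22 in TGC3 and -3.22 ± 0.29 in TG (SD, n = 3 each). The call depends on single arrays: it was lost without TGC3 1, TGC3 2, TG 1 or TG 2, with an adjusted p of up to 0.0671, and was 0.0274 without TGC3 3 and 0.0186 without TG 3. The probe was dim, at 101 to 131 intensity units in TGC3 and 50.6 to 83.3 in TG. Probes of its class of signal, the dimmest but 2 of 10, leaned upwards as a whole, with a median change of 0.10, 22.5% called higher and 5.40% with a change at least as large.

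Markers of cells that could carry Cd200 also moved on these arrays. Beside the marker counts here and below stand 16.3% higher and 8.30% lower over all genes read by their brightest probe. In the sorted cells as a bulk, fewer cells of a type and less RNA per cell cannot be told apart. Of 11 B and plasma cell markers 5 were tested, and limma called 4 higher and 0 lower, the same numbers as at an unadjusted p under 0.05 (median 0.80). Pax5 and Sdc1 were above background on no array. Cd72 and Cd22, inhibitory receptors best known from B cells that stand in another list below, fell (-1.05 ± 0.12 and -0.92 ± 0.22). Fcgr2b of that list rose (0.76 ± 0.16). Ms4a1, which encodes CD20, was above background on all TGC3 arrays and on no TG array, at least 3.52-fold higher. It is 1 of the 4 counted as higher and was tested only because of its TGC3 signal, so that it had to differ. Jchain (2.60 ± 0.36), also among the 4, was above background on 3 TGC3 arrays and 1 TG array. Its TGC3 arrays alone met the filter. The summed B and plasma cell marker signal, in multiples of the array's 75th percentile, was 5.71 to 6.36 in TGC3 and 5.37 to 6.61 in TG. Cd79b, which did not pass (-0.03 ± 0.11, adjusted p = 0.852), made up 89.5% to 97.8% of that sum on each array. Without the brightest marker, left out here and in later sums after seeing the data, the sums were 0.396, 0.6 and 0.366 in TGC3, against 0.157, 0.165 and 0.148 in TG, without overlap. These sums include Ms4a1 and Jchain, which met the filter through TGC3 arrays, so the gap is partly set by the filter. All 3 tested endothelial and hepatocyte markers of 11 listed were higher, with sums of 0.396 to 0.415 in TGC3 and 0.233 to 0.240 in TG, while Lyve1, Kdr, Cdh5, Apoa1 and Ttr were above background on no array. These 3, Stab2, Clec4g and Trf, were dim (TGC3 means of -2.33, -3.40 and -3.16), where probes lean upwards as a whole. Their changes of 0.72, 0.84 and 0.83 were 0.42, 0.35 and 0.31 under normexp with aberrant backgrounds replaced, still called. The called B and plasma cell markers were dim too, with TGC3 means of -4.41 to -2.51. The part of these cells in the Cd200 difference was not tested.

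Ctla4 encodes CTLA-4, which competes with CD28 for CD80 and CD86. Its probe (A_52_P184548, NM_009843, chr1:60971508-60971567, mm9, plus strand) read -3.50, -4.34 and -3.77 in TGC3, against -4.81, -4.47 and -4.42 in TG. The groups did not overlap, but TGC3 2 lay just above the highest TG array. The difference of 0.69 ± 0.23 (95% interval 0.15 to 1.24, 1.62-fold) did not pass (adjusted p = 0.0732), with means of -3.87 ± 0.43 in TGC3 and -4.57 ± 0.21 in TG (SD, n = 3 each). Without TGC3 2 it passed (adjusted p = 0.0192). The probe was dim, at 30.2 to 52.5 intensity units in TGC3 and 20.1 to 29.0 in TG, and in its class of signal the median change over all probes was 0.17.

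Ctla4 and Pdcd1 are also abundant in regulatory and follicular helper CD4+ T cells. Of 8 markers of those cells 5 were tested, of which Ikzf4 was higher (0.40 ± 0.07, adjusted p = 0.0137) and Bcl6 (-0.49 ± 0.08, adjusted p = 0.0121) and Cxcr5 (-1.52 ± 0.14, adjusted p = 0.00229) were lower. Foxp3, which defines regulatory T cells, and Il21 were above background on no array. The summed signal of the list was 5.26 to 5.51 in TGC3 and 9.20 to 10.3 in TG, and Bcl6 and Cxcr5 made up most of it, while the median change of the list was 0.14. Il2ra (0.41 ± 0.12, adjusted p = 0.0516) and Cd4 (0.14 ± 0.07, adjusted p = 0.184) lay higher in TGC3 without overlap but did not pass. The Ikzf4 call was lost without TG 2 (adjusted p = 0.0538), with quantile normalization (0.25, adjusted p = 0.0558), centring on the median (0.22), cyclic loess (0.28) and the authors' deposited matrix (0.25), and under unrepaired normexp, where its sign turned. The part of these cells in the Ctla4 and Pdcd1 differences was not tested.

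Lag3 encodes a CD4-like receptor that binds MHC class II. Its probe (A_51_P264825, NM_008479, chr6:124854570-124854866, mm9, minus strand) spans 297 bases of the genome and read 0.38, 0.36 and -0.05 in TGC3, against -0.25, 0.06 and 0.10 in TG. The groups overlapped through TGC3 3. The difference was 0.26 ± 0.15 (95% interval -0.11 to 0.63, adjusted p = 0.262), with means of 0.23 ± 0.24 in TGC3 and -0.03 ± 0.19 in TG (SD, n = 3 each).

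Havcr2 encodes TIM-3, which is found on exhausted T cells and also on macrophages and dendritic cells. The tested probe (A_51_P109508, NM_134250, chr11:46294650-46294709, mm9, plus strand) read -3.28, -0.99 and -2.65 in TGC3, against -3.00, -2.40 and -2.45 in TG. TGC3 2 stood far above the other 5 arrays (307 intensity units, against 61.3 and 98.9 on TGC3 1 and TGC3 3 and 70.0, 108 and 113 in TG), while the other TGC3 arrays lay below the higher TG arrays. The difference of 0.31 ± 0.57 (95% interval -1.05 to 1.68, adjusted p = 0.723) turned to -0.34 without TGC3 2 (adjusted p = 0.392). A second probe, A_52_P560535 (chr11:46269921-46269980, plus strand), was well above background on TGC3 2 and TG 2 only and so was not tested. It read 7.99, 60 and 7.75 intensity units in TGC3 and 12.3, 24.6 and 13.9 in TG, again with TGC3 2 highest. Its sequence is given because it comes from another stretch of the transcript than the tested probe and yet picks out the same array.
Havcr2 A_52_P560535: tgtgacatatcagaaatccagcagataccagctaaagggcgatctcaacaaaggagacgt

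The summed signal of macrophage, monocyte and dendritic cell markers was 16.5, 26.6 and 15.2 on TGC3 1 to TGC3 3 and 19.0 to 21.6 in TG. Itgax, which encodes CD11c and did not pass (-0.18 ± 0.20, adjusted p = 0.550), made up 85.0% to 93.9% of it on each array. Without Itgax the sums were 1.63, 4.00 and 1.87 on TGC3 1 to TGC3 3 and 1.29, 1.17 and 1.32 in TG, with TGC3 2 again highest and the groups apart. Lyz2, which encodes lysozyme, read -1.62, 1.16 and -0.82 in TGC3 and -2.64, -4.56 and -3.75 in TG, and Mpeg1 read -3.39, -2.24 and -3.31 in TGC3, against -4.35, -4.34 and -4.32 in TG. Of 17 listed markers 11 were tested, and limma called 5 higher and 0 lower, against 6 and 0 at an unadjusted p under 0.05 (median 0.32). C1qa, C1qc, Siglech and Clec9a were above background on no array. Flt3 (0.42 ± 0.08, adjusted p = 0.0180) was dim, with means of -3.95 in TGC3 and -4.36 in TG. It passed in only 5 of 14 other settings that kept all arrays. Lyz2 (3.22 ± 0.79, adjusted p = 0.0339) lost its call when TGC3 3, TG 2 or TG 3 was left out, as did Mpeg1 (1.35 ± 0.30, adjusted p = 0.0244) without any 1 TG array. The part of myeloid cells in the Havcr2 level of TGC3 2 was not tested.

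**Figure D2:**
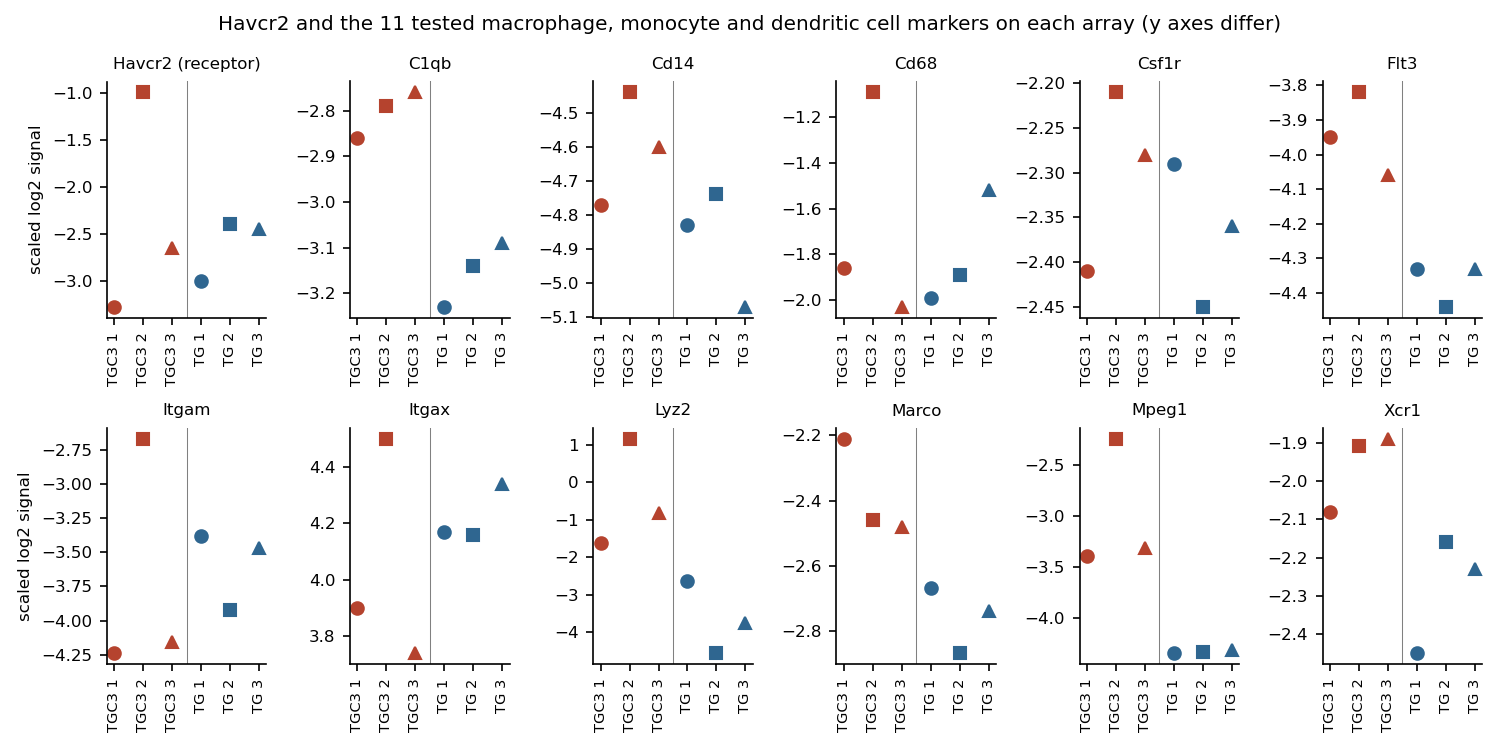
Scaled log2 signal of Havcr2 and of the 11 tested macrophage, monocyte and dendritic cell markers on each array, with TGC3 arrays left of the grey line and TG arrays right of it. TGC3 2 is the highest array for Havcr2 (-0.99), Lyz2 (1.16) and Mpeg1 (-2.24), and lies among the TGC3 arrays for C1qb.

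Cd244 was the gene of the set with the largest fitted fall. It encodes 2B4, which binds CD48 on neighbouring cells. The probe shown above, A_52_P541344 (NM_018729), read -1.17, -2.25 and -1.67 in TGC3, against -0.78, -0.53 and -0.42 in TG. All TGC3 arrays lay below all TG arrays. It fell by 1.12 on the log2 scale (-1.12 ± 0.27, 95% interval -1.77 to -0.47, 2.18-fold lower, adjusted p = 0.0311), with means of -1.70 ± 0.54 in TGC3 and -0.58 ± 0.18 in TG (SD, n = 3 each). The call was lost without TGC3 3 or any 1 TG array, with an adjusted p of up to 0.0894, and held without TGC3 1 or TGC3 2.

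The other Cd244 probes differ in how far they carry this. The brightest, A_51_P205209 (chr1:173513231-173513290, plus strand), read 2.27, 1.23 and 1.79 in TGC3, against 2.26, 2.52 and 2.83 in TG. TGC3 1 overlapped the lowest TG array, and the difference of -0.77 ± 0.28 (95% interval -1.44 to -0.10) did not pass (adjusted p = 0.0968). The dim probe A_52_P26766 (chr1:173514032-173514091, plus strand) was left out for a background flag and read 62.9, 39.5 and 51.5 intensity units in TGC3 and 78.1, 94.7 and 123 in TG, without overlap. In the fit that ignored background flags its change was -1.0 ± 0.21 (adjusted p = 0.0206). On each of the 3 probes TGC3 2 was the lowest array, TGC3 1 the highest TGC3 array and TG 3 the highest of all. The calls thus differ between probes of 1 gene while the order of the arrays at both ends is shared.

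Cd160 encodes a receptor for HVEM that is anchored in the membrane by a lipid. Its probe (A_51_P285047, NM_018767) was bright, with 2.63, 2.11 and 2.37 in TGC3, against 2.82, 2.79 and 2.90 in TG. The groups did not overlap, and the TG arrays lay close together. The difference was -0.47 ± 0.13 (95% interval -0.79 to -0.14, 1.38-fold lower, adjusted p = 0.0531), with means of 2.37 ± 0.26 in TGC3 and 2.84 ± 0.06 in TG (SD, n = 3 each). It did not pass, and without TGC3 1 it did (adjusted p = 0.0269).

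Btla encodes BTLA, which shares the ligand HVEM with CD160. Its probe (A_51_P402359, NM_001037719, chr16:45252118-45252177, mm9, plus strand) read 0.38, 0.22 and 0.08 in TGC3, against 0.69, 0.51 and 0.44 in TG. Here too every TGC3 array lay below every TG array. The difference of -0.32 ± 0.11 (95% interval -0.58 to -0.06, 1.25-fold lower) did not pass (adjusted p = 0.0786), and no 1 array left out made it pass (adjusted p 0.0694 to 0.203). Tnfrsf14, which encodes HVEM itself, had a change of -0.23 ± 0.09 (adjusted p = 0.111); it was singled out as the shared ligand after its value was seen.

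Cd244 and Cd160 are also genes of NK cells. Of 9 NK cell markers 4 were tested, 0 were higher in limma (1 at an unadjusted p under 0.05), and Styk1 (-1.27 ± 0.22, adjusted p = 0.0123) and Fcer1g (-0.93 ± 0.20, adjusted p = 0.0235) were lower, for a median of -0.70. The other 2, named after their values were seen, did not pass. Klrb1c lay higher in TGC3 without overlap (0.39 ± 0.14, adjusted p = 0.0962), and Ncr1 had a change of -0.46 ± 0.25 (adjusted p = 0.237). Styk1 was above background on 2 of 3 TGC3 arrays. Fcer1g kept its call only where TGC3 1 or TG 3 was the array left out. The summed NK marker signal was 4.48 to 5.55 in TGC3 and 5.70 to 8.55 in TG, without overlap, and Khdc1a was above background on no array. Fcer1g made up 49.8% to 75.7% of that sum, and without it the sums lay the other way, at 2.37, 2.25 and 2.64 in TGC3, against 2.17, 2.07 and 1.65 in TG. Of 8 tested T cell markers, limma called 0 higher (0 also at an unadjusted p under 0.05) and 2 lower, Thy1 and Cd3g, and 6 passed neither way (median -0.18). The Cd3g call was lost whichever 1 array was left out and that of Thy1 without TGC3 3 or any 1 TG array. Cd3e, counted as not passing by its brightest probe and named after its value was seen, had 1 of 2 tested probes called. The T cell marker sums, 430 to 475 in TGC3 and 465 to 522 in TG, overlapped. The part of NK cells in the Cd244 and Cd160 differences was not tested.

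Tox encodes an HMG-box factor of the exhausted state. Its brightest probe (A_51_P421912, NM_145711, chr4:6615142-6615201, mm9, minus strand) read -0.19, -0.28 and -0.75 in TGC3, against -0.47, -0.33 and -0.19 in TG. The groups overlapped fully. Their difference was -0.08 ± 0.16 (95% interval -0.47 to 0.32, adjusted p = 0.767). The probe A_52_P561073 (chr4:6615449-6615508) read -1.92, -2.01 and -2.60 in TGC3 and -2.11, -2.07 and -1.89 in TG, with a difference of -0.15 ± 0.19 (95% interval -0.60 to 0.30, adjusted p = 0.589). Both intervals leave out changes as large as the fitted Pdcd1 difference, in either direction. On both probes TGC3 3 was the lowest array, and without it the differences were 0.10 and 0.06. Another Tox probe, A_52_P258211 (ENSMUST00000147657, chr4:6668190-6668249), was well above background on TGC3 1 only and was not tested. Of the other TOX family genes, Tox4 was the only one tested (-0.05 ± 0.06, adjusted p = 0.581).

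**Figure D3:**
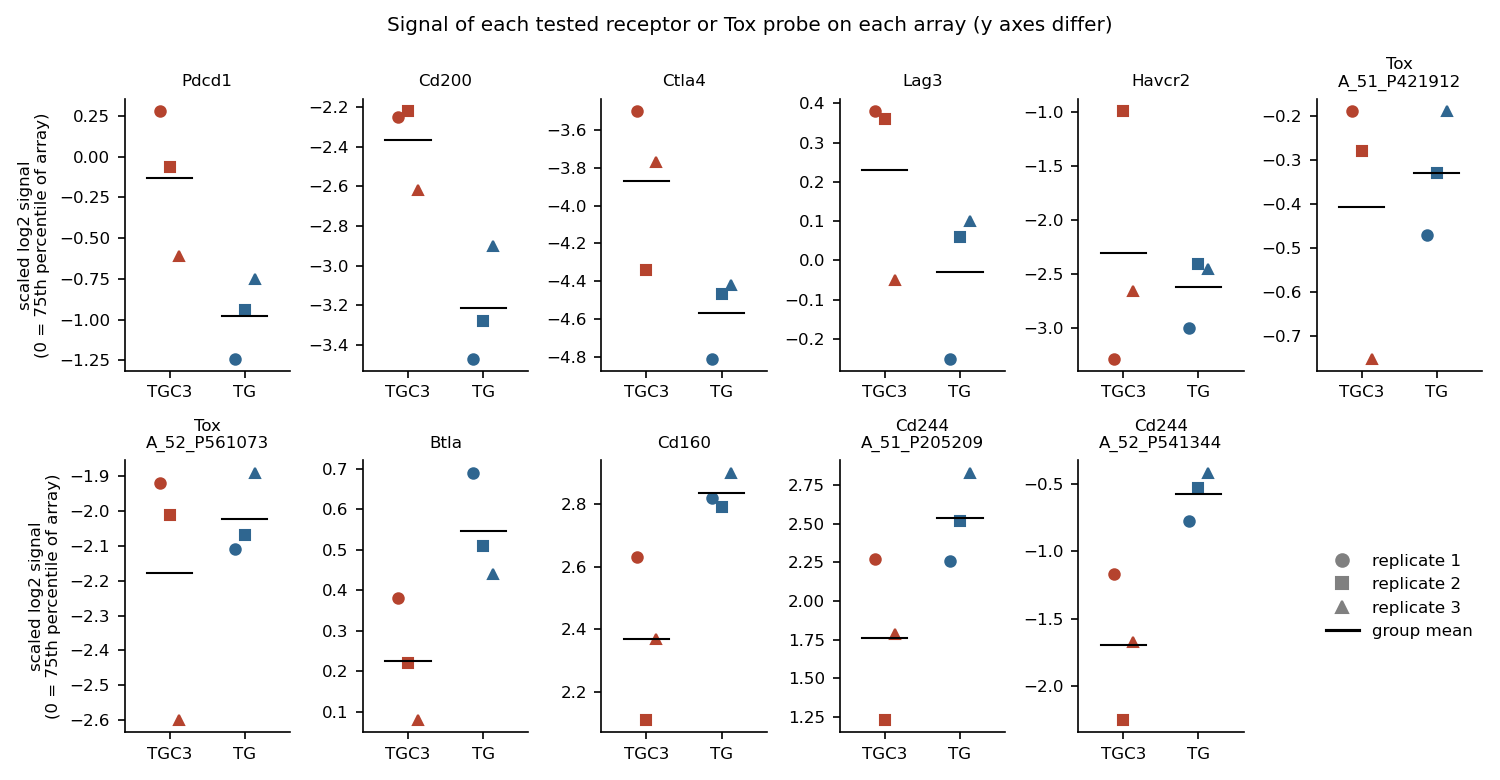
Scaled log2 signal of each tested probe on each array, TGC3 left of TG, with a marker for each replicate number and a bar for the group mean. The y axes differ between panels. Pdcd1, Cd200 and Ctla4 lie higher in TGC3, and Btla, Cd160 and the Cd244 probe A_52_P541344 lower in TGC3, without overlap; TGC3 2 stands apart for Havcr2.

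Across the 6 arrays 2 groups of probes moved together, given as a description over arrays that share slides. The Tox and Havcr2 probes were placed in neither. Pdcd1 went with Cd200 (r = 0.95), Lag3 (0.91) and Ctla4 (0.77). Cd160 went with the Cd244 probes A_51_P205209 and A_52_P541344 (0.96 and 0.99), and those probes with each other (0.97). The 2 Tox probes correlated at 0.97, and the brighter correlated at 0.38 with Pdcd1 and 0.64 with Lag3. Havcr2 correlated at 0.18 with Pdcd1 and at -0.67 with Cd160. Among 10552 other genes above background on all 6 arrays, those most like Pdcd1 were Kdm5a (r = 0.9965), Col18a1 (0.9897) and Gla (0.9836). Of these Col18a1 passed the test (0.43, adjusted p = 0.0449) and Kdm5a (0.11, adjusted p = 0.238) and Gla (0.15, adjusted p = 0.174) did not. Those most like Tox were Fam195b (0.9774), Tmem234 (0.9680) and Ndufb5 (0.9618), none of which passed (adjusted p = 0.899, 0.797 and 0.524). As the highest of 10552 coefficients over 6 arrays, these r values were picked to be large and are a description only.

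The ligands of these receptors moved in both directions. Of 15 listed, 11 were tested, 3 were higher and 3 lower, with a median change of -0.23, against 0 over all genes read by their brightest probe, of which 16.3% were higher and 8.30% lower. Lgals3, which encodes galectin-3, a ligand of LAG-3, read 2.67, 2.5 and 2.65 in TGC3, against 1.49, 1.51 and 1.98 in TG and rose by 0.95 ± 0.15 (adjusted p = 0.0083). Fgl1, a secreted liver protein that also binds LAG-3, rose by 0.53 ± 0.07 (adjusted p = 0.00563). Pdcd1lg2, which encodes the PD-1 ligand PD-L2, read -1.54, -2.22 and -2.20 in TGC3, against -0.74, -0.86 and -0.82 in TG. It fell by 1.18 on the log2 scale (-1.18 ± 0.19, adjusted p = 0.00936). These 3 kept their calls whichever 1 array was left out. The other calls, named after their values were seen, were Hmgb1 (0.25), Pvr (-0.37) and Lgals9 (-0.30), ligands of TIM-3, TIGIT and TIM-3, with 1 of 4 tested Hmgb1 probes and 2 of 5 tested Pvr probes called. The hepatocyte marker Trf rose on the same arrays (0.83 ± 0.07, adjusted p = 0.00193), while Alb was above background on 1 array, and its part in the Fgl1 change was not tested.

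Of 17 other inhibitory receptors, 13 were tested, 1 was higher and 2 were lower (median 0.01). Over all genes read by their brightest probe, 16.3% were higher and 8.30% lower, so these counts are no result about the list. Cd72 and Cd22, inhibitory receptors best known from B cells, fell, Cd72 by 1.05 on the log2 scale (-1.05 ± 0.12, adjusted p = 0.00353) and Cd22 by 0.92 (-0.92 ± 0.22, adjusted p = 0.0302). Fcgr2b, the inhibitory IgG receptor, rose by 0.76 ± 0.16 (adjusted p = 0.0200). Cd72 held in every fit that left out 1 array. Cd22 held only without TGC3 2, and Fcgr2b only where TGC3 1, TG 1 or TG 3 was the array left out.

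Of 20 listed genes that carry inhibitory signals, 18 were tested, 0 were higher in limma (0 also at an unadjusted p under 0.05), 2 were lower and 16 passed neither way (median -0.08), against 16.3% higher and 8.30% lower over all genes read by their brightest probe, while centring on the median called 8 lower. The calls were Ptpn6, the phosphatase SHP-1 (-0.42 ± 0.10, adjusted p = 0.0356), and the ubiquitin ligase Cbl (-0.31 ± 0.07, adjusted p = 0.0269). Only 1 of 3 tested Ptpn6 probes and 1 of 2 tested Cbl probes were called. Each call was lost in 5 of the 6 fits that left out 1 array. Csk and Pik3ip1, counted as not passing by their brightest probe, each had 1 of 2 tested probes called. Both were named after their values were seen. Sh2d1a, the adaptor SAP that binds the motif printed above, read 2.44, 3.07 and 2.43 in TGC3 and 2.68, 2.59 and 2.76 in TG, a difference of -0.03 ± 0.18 (adjusted p = 0.930), and was singled out for that role after its value was seen.

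Of 15 costimulatory relatives, 14 were tested, 1 was higher and 1 lower (median -0.12), against 0 and 6 with centring on the median. The shares over all genes read by their brightest probe were 16.3% higher and 8.30% lower. Cd28, counted as not passing by its brightest probe and named after its value was seen, had 1 of 2 tested probes called. Cd27, a costimulatory receptor of the TNF receptor family, fell by 0.40 (-0.40 ± 0.07, adjusted p = 0.0108) and kept its call whichever 1 array was left out. Tnfrsf9, which encodes the activation-induced receptor 4-1BB, rose by 0.40 ± 0.11 (adjusted p = 0.0482) on 1 of its 2 probes, and passed only without TG 3 among the fits that left out 1 array. The call was also lost with quantile normalization (0.28, adjusted p = 0.145), cyclic loess (0.30), centring on the median (0.22), the authors' deposited matrix (0.28), the replicate block (adjusted p = 0.101), no filter on dim probes (adjusted p = 0.109) and unrepaired normexp.

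Of 25 regulators and surface genes tied to exhaustion, 21 were tested, 3 were higher and 2 lower (median 0.05), against 1 and 7 with centring on the median. Among all genes read by their brightest probe, 16.3% were higher and 8.30% lower, so these counts are no result about the list. Nr4a1, a nuclear receptor induced by T cell receptor signals, rose by 0.83 ± 0.15 (adjusted p = 0.0132). Cxcr5, the follicle homing receptor that also marks stem-like exhausted CD8+ T cells, read 0.46, 0.99 and 0.83 in TGC3, against 2.33, 2.22 and 2.30 in TG and fell by 1.52 on the log2 scale. Myb, a transcription factor of stem-like T cells, fell by 0.92 (-0.92 ± 0.19, adjusted p = 0.0210) on 1 of 2 probes, a call lost without TGC3 3, TG 1 or TG 2. Nr4a1 and Cxcr5 passed whichever 1 array was left out. The other calls, named after their values were seen, were Nr4a2 (0.74 ± 0.19, adjusted p = 0.0396) and Maf (0.35 ± 0.07, adjusted p = 0.0204). Tcf7 (0.06 ± 0.06, adjusted p = 0.509) and Eomes (-0.41 ± 0.36, adjusted p = 0.443), factors of stem-like and of effector or exhausted cells, were also chosen after their values were seen and did not pass.

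**Figure D4:**
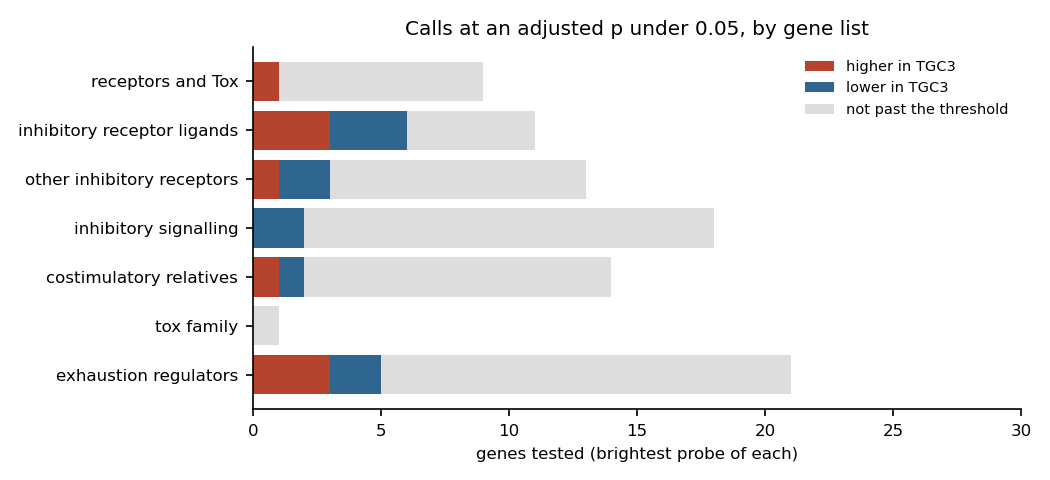
Number of genes tested in each list, read by the brightest probe, split into those higher in TGC3, lower in TGC3 and not past an adjusted p of 0.05. Of the 9 receptor and Tox genes 1 is higher and 8 do not pass, and the ligands split into 3 higher, 3 lower and 5 that do not pass.

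Cell cycle genes moved on the same arrays. Of 12 cycling markers 11 were tested, and limma called 11 higher and 0 lower, as did an unadjusted p under 0.05 (median 1.42), with sums of 62.3, 102 and 63.6 on TGC3 1 to TGC3 3 and 27.5 to 34.1 in TG. Among them Cenpf (2.14 ± 0.22, adjusted p = 0.00284), Nusap1 (2.12 ± 0.24, adjusted p = 0.00379) and Plk1 (2.04 ± 0.20, adjusted p = 0.00267) changed most. The part of cycling cells in the receptor differences was not tested.

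How far each call depends on the processing is drawn probe by probe. Cd200 passed the threshold in 11 of 14 other settings that kept all arrays, and the Cd244 probe A_52_P541344 in 10 of the 13 in which it was read. These settings are not separate checks. Quantile normalization and the authors' deposited matrix, for example, gave Cd200 the same change in limma (0.73, adjusted p = 0.0462). Unrepaired normexp background correction, which called 0 of all 22222 probes, ended both calls (adjusted p = 0.885 for Cd200 and 0.663 for the Cd244 probe). With 7 aberrant spot backgrounds of TG 3 replaced, normexp kept both (0.0161 and 0.0111). Testing with no filter on dim probes also ended them (0.0542 and 0.0733). Pdcd1 had a higher level in TGC3 in all of them, from 0.56 to 1.09 with the leave-out fits included, and lay on either side of the threshold (adjusted p 0.0230 to 0.663). No setting brought Lag3, Havcr2 or a Tox probe past it.

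**Figure D5:**
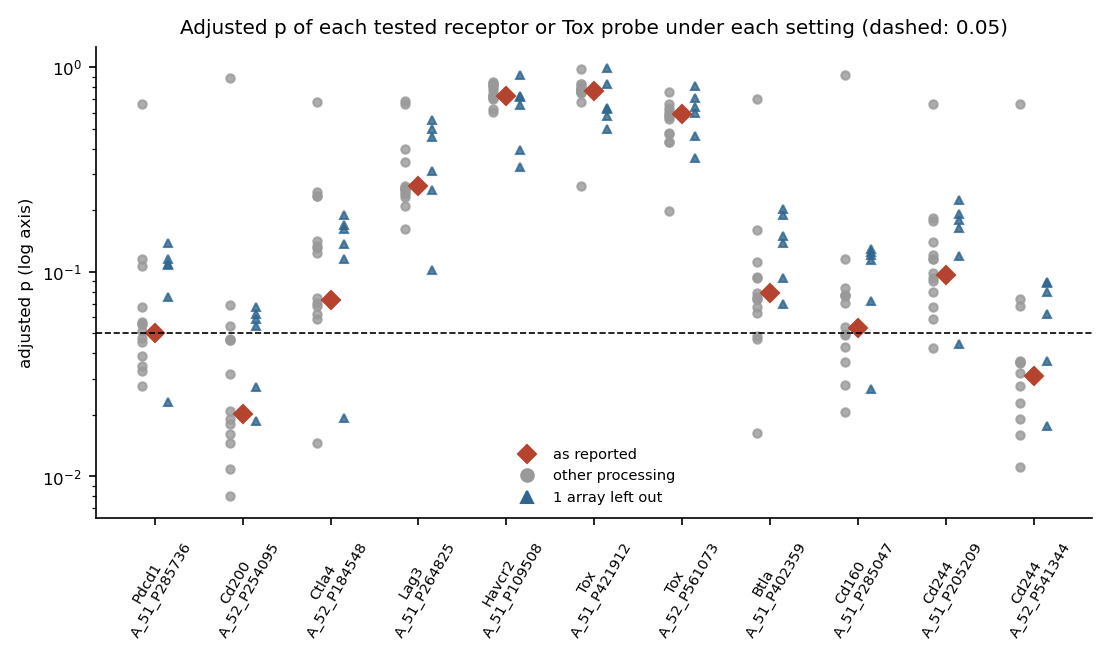
Adjusted p on a log axis for each tested probe as reported (diamonds), under other processing (circles) and with 1 array left out (triangles), with the 0.05 threshold dashed. For Cd200 and the Cd244 probe A_52_P541344 the circles lie mostly below the line and the triangles mostly above it. Pdcd1, Cd160, Btla, Ctla4 and the Cd244 probe A_51_P205209 fall on both sides of it, and Lag3, Havcr2 and both Tox probes stay above it.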

How the data were processed

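Total RNA of CD8+ T cells from liver was read on 6 one-colour Agilent arrays of 45018 spots, 3 TGC3 and 3 TG, with groups taken from the labelled genotype. The Feature Extraction version was 10.7.3.1 per the file headers and 10.7.1.1 per the submitters' processing notes. The processed signal, per the file headers, is a spot intensity from which background was subtracted and a spatial trend removed, with no normalization across arrays. Mean and background signals are unprocessed. The deposited matrix holds log2 values with a median of 5.58 on every array, which correlated at 0.999 to 1 with the log2 processed signal. How the authors normalized it is not given in the sources used here, and it served as an alternative. No column was left unmapped to a sample.

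The 43379 non-control spots held 41174 distinct probes, with spots of a probe averaged on the log2 scale. Each array's 75th percentile was subtracted. Left out were 4159 probes with a feature or background outlier flag on any array, among them those of Cxcr3 and 1 of Cd244 and the only usable probes of listed genes such as Cd274 and Tbx21. A probe entered the test if at least 3 of 6 arrays, in either group, called it well above background. Saturated spots numbered 0. The arrays give no counts, so the background call and the number of arrays set the precision.

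The groups were compared by lmFit and eBayes of limma 3.58.1, run in R 4.3.3, and statmod 1.5.0 and data.table (at 1.17.8) were also used. Tests were two-sided, the threshold was a Benjamini-Hochberg adjusted p under 0.05 over all kept probes, and the fit was tested on simulated data. The probe is the unit, and a gene's brightest kept probe stands for it in lists. Figures were drawn with Python 3.11.15, pandas 2.3.3, numpy 2.4.6 and matplotlib 3.10.9. Probe positions (mm9) come from the array files.

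The members and lists were chosen with earlier results of these data known. Named are all member probes, of each other list the 3 genes past the threshold with the largest change, the 3 genes most correlated with Pdcd1 and with Tox, and Cxcr3. Markers above background on no array may also be named, and other names are said to be chosen after their values were seen. Alternatives changed the normalization, background correction, filter, floor, choice of probe, variance model and replicate block or left out each array in turn, and a fit that used feature outlier flags only was added after seeing the data. The design has no wild-type samples.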

Additional observations from a re-analysis of the deposited data

How the results depend on the processing

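Over the 22222 probes, against 3107 higher and 1810 lower, centring on the median gave 2046 and 6420. Normexp gave 0 and 0 in limma (605 at an unadjusted p under 0.05). With 7 aberrant spot backgrounds of TG 3 replaced it gave 2333 and 2332. With no filter on dim probes 37015 probes were tested, of which 2268 were higher and 643 lower. Over the 22222 again, array weights gave 2998 lower and the replicate block 1958 and 630. Leaving out 1 array gave 1907 to 2686 higher and 619 to 1711 lower. Of the receptor and Tox probes, against 1 higher and 1 lower, 2 were higher and 2 lower with the filter on all 6 arrays and with the floor, 2 and 3 with repaired normexp and with trend and robust settings, 3 higher with array weights, 2 higher with the brightest probe of a gene, 0 lower with the mean of its probes, 4 lower with centring on the median, 2 lower with feature outlier flags only, and 0 and 0 with unrepaired normexp, with no filter and with the replicate block. Leaving out 1 array gave 0 to 2 higher and 0 to 3 lower. Same-numbered TGC3 and TG arrays deviated from their group means with correlations of -0.01, -0.04 and -0.12. With 3 arrays a group, these values cannot tell whether same-numbered samples were paired, and the labels name no pairs. With the block, Cd200 and the Cd244 probe A_52_P541344 had adjusted p values of 0.0688 and 0.0679. Signs turned, without a call, under unrepaired normexp for Cd200 (-0.15), Ctla4 (-0.61), Havcr2 (-0.33), Tnfrsf9 (-0.40), Ms4a1 (-0.16), Jchain (-0.02), Vpreb3 (-0.32), Ikzf4 (-0.46), Clec4g (-0.46), Trf (-0.46), Stab2 (-0.20), Mpeg1 (-0.27), Flt3 (-0.73), Cd3g (0.15) and Fcgr2b (-0.08), and for Havcr2 with array weights (-0.14). Leaving out 1 array moved Havcr2 between -0.34 (without TGC3 2) and 0.80, and the Tox probes A_51_P421912 between -0.18 and 0.10 and A_52_P561073 between -0.28 and 0.06, with both upper values without TGC3 3. The cause of these shifts was not tested. Havcr2 had the widest standard error of the receptor and Tox probes (0.57).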
